A study of Drosophila melanogaster with 6 samples.

Results

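Octopaminergic and tyraminergic neurons of the Drosophila melanogaster brain were sought by their marker RNAs among 120836 barcodes of a droplet single-cell RNA-seq experiment, and 354 barcodes met the rule. The rule asked for at least 500 unique molecular identifiers (UMIs, each standing for 1 captured RNA molecule), at most 20% of them from mitochondrially encoded genes, at least 1 UMI of Vmat, at least 1 UMI of Tdc2 and Tbh together, and none of ple, Trh, SerT or repo. The 6 libraries held 6, 98 and 9 members in controls 1, 2 and 3, and 108, 122 and 11 in knock-ins 1, 2 and 3. Control flies, also labelled wild type, carried elav-GAL4(x)/+, a driver line with the promoter of the pan-neuronal gene elav, and the other group is labelled elav-tau P251L KI, a fly with an amino acid change in tau, the microtubule-binding protein. No label of a control library names the tau change, and whether knock-in flies carry the GAL4 driver is not stated in the sources used here. A library was made from pooled brains, 20 of each sex, after 30 minutes in 0.05% trypsin and a 10 µm strainer. Fly age and the making of the knock-in are not given in the sources used here. Nothing says whether the 3 libraries of a genotype came from separate crosses, so p-values of genotype over the 6 libraries measure the spread between these libraries. Tests between kinds of cells, with library as a block, measure how far the difference within a library varies between libraries.

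Octopamine and tyramine are the insect counterparts of noradrenaline and adrenaline. Tyrosine is decarboxylated to tyramine by Tdc2, tyramine is hydroxylated to octopamine by Tbh, and Vmat loads both amines, and dopamine and serotonin as well, into vesicles. A neuron with Tdc2 and Tbh is therefore described as octopaminergic and one with Tdc2 alone as tyraminergic, and in the fly brain few, widely branching cells of this kind act in arousal, feeding, reward and flight. In the excluded classes, ple makes the dopamine precursor, Trh and SerT mark serotonin neurons, and repo marks glia.

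In the Ensembl BDGP6 annotation, matched by identifier, Tdc2 lies on the minus strand of 2R at 6684745 to 6689974, Tbh on the plus strand of X at 7995697 to 8027394, and Vmat on the minus strand of 2R at 13513132 to 13534251. Tdc2 overlaps 1 gene on the opposite strand, Tbh overlaps 1 and Vmat overlaps 3. The sources used here do not say if counting used the strand, so whether reads of these pairs were kept apart is not known here. The counts are 3' tags, expressed below as CPM (a gene's UMIs scaled to a common total for each library and class), and say nothing of a codon change in tau. Its level in members was 567, 322 and 360.4 CPM in controls 1 to 3, and 374, 334 and 84.8 CPM in knock-ins 1 to 3. The low value of knock-in 3 was also present in the other repo-negative barcodes, at 71.0 CPM against 269 to 310.5 CPM in the other 5 libraries.

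The libraries differed in size, with 22026339 to 114599045 UMIs in all and 7082 to 39504 barcodes that passed the depth and mitochondrial limits. Members were deeper than the average barcode, with a median of 3085.5 UMIs against 1850 over all passing barcodes. Among passing barcodes 3047 sequences occurred in 2 or more libraries, and 6 members had such a barcode. No barcode was a member in 2 libraries, and 18 members lay in the deepest 1% of their library, where 2 cells in 1 droplet are most frequent. All 7 neuronal markers of the list (elav, nSyb, Syt1, brp, cac, Syn, para) were detected in members, at a summed 10617 CPM (range over libraries 9008 to 10769). Glial markers summed to 307 CPM with wrapper at 0, fat body markers to 615 CPM with Lsp2 at 0, photoreceptor markers to 15.9 CPM with trp and chp at 0, muscle markers to 9.92 CPM with Mhc at 0, and hemocyte markers to 0.662 CPM. Fat body RNA ranged from 120 to 1292 CPM in members of controls and from 0 to 390 CPM in members of knock-ins, and its part in the results was not tested.

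The members were divided into 2 sets by detection of Tdc2, and the sets differed in their Vmat level. In the first, 113 members held Tdc2, and their Vmat was high, from 1 to 1485 UMIs per barcode with a median of 51. Of these, 93 had 10 or more Vmat UMIs, 15 had 2 to 9 and 5 had 1. In the second, 241 members held Tbh and no Tdc2. Their Vmat had a median of 1 UMI, and 193 of them had exactly 1. Most of the second set also held a single Tbh UMI, 188 of 241. In all, 167 of the 354 members met each marker condition with 1 UMI only.

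**Figure D1:**
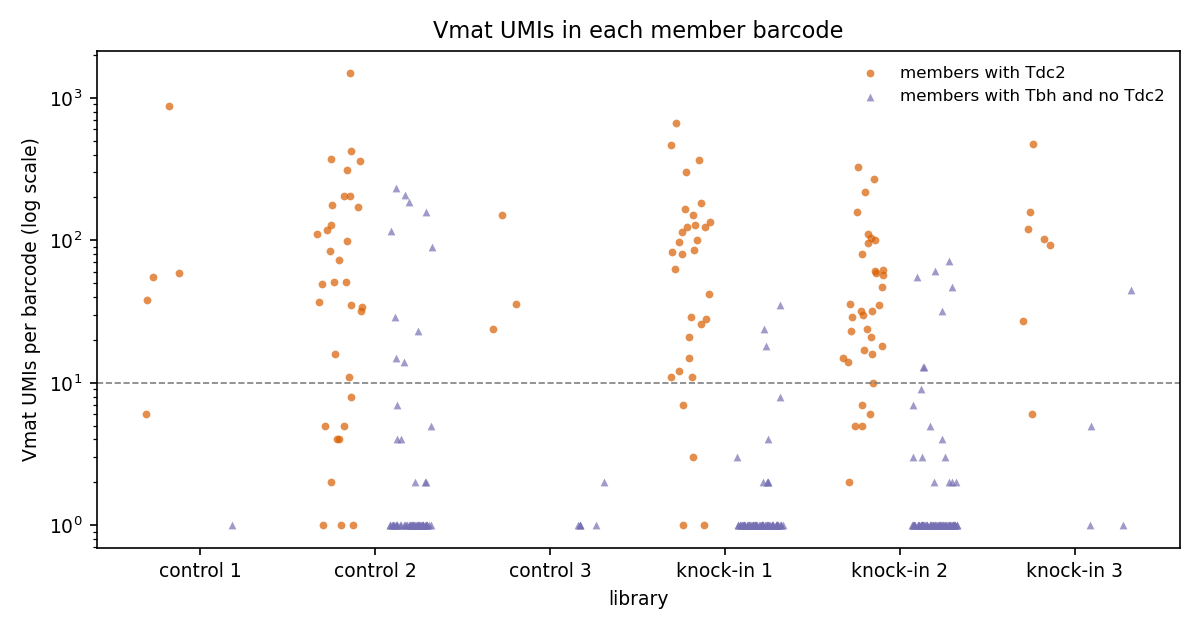
Vmat UMIs (log scale) in each of the 354 member barcodes by library, with members that hold Tdc2 as circles and members with Tbh and no Tdc2 as triangles; the dashed line marks 10 UMIs. In every library most circles lie above the line, while 193 of the 241 triangles lie at 1 UMI.

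Detection of Tdc2 and Tbh was also counted by Vmat level over all repo-negative barcodes without ple, Trh or SerT. Those with Vmat and with Tdc2 or Tbh are the members themselves, so the counts are not independent of the division above. Tdc2 was detected in 0.269% of 112840 barcodes without Vmat, in 0.210% of 2380 with 1 Vmat UMI, in 3.05% of 492 with 2 to 9, and in 47.4% of 196 with 10 or more. Tbh was detected in 7.48%, 8.11%, 5.69% and 27.0% of the same 4 groups. The exact 95% binomial interval of the Tbh share at 1 Vmat UMI, 7.04% to 9.28%, holds the share without Vmat. These intervals cover counting error only.

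**Figure D2:**
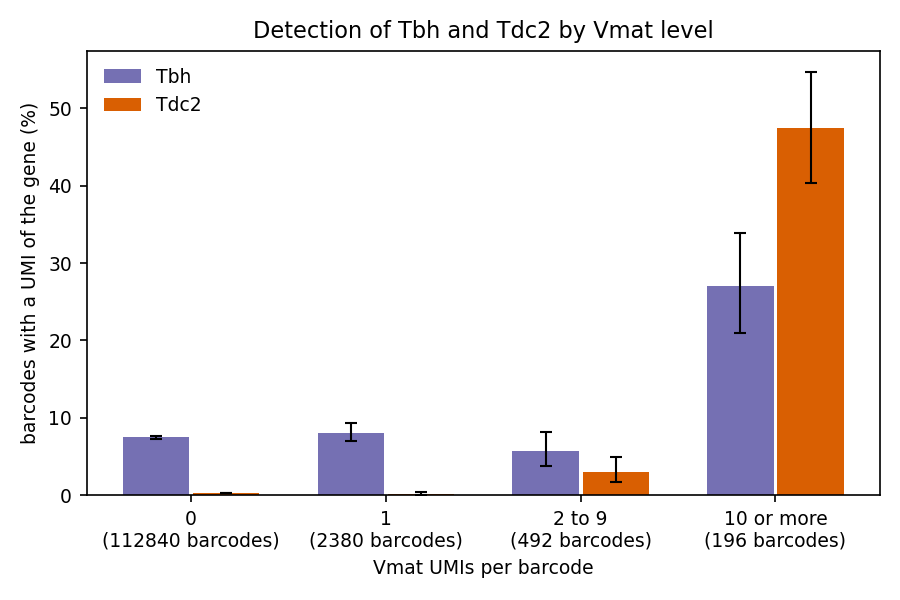
Share of barcodes with at least 1 UMI of Tdc2 or of Tbh (percent) by the number of Vmat UMIs in the barcode, with exact 95% binomial intervals. Tdc2 reaches 47.4% in barcodes with 10 or more Vmat UMIs, and Tbh stays between 5.69% and 8.11% below that and is 27.0% there.

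Free RNA in the droplets gives a background to such detections. Glia, which should lack Tbh and Tdc2, were represented by 1692 repo-positive barcodes with a median of 2174 UMIs. In them Tbh was detected in 6.21% and Tdc2 in 0.118%, against 7.51% and 0.367% of all passing barcodes at a median of 1850 UMIs. Vmat was detected in 8.16% of the repo-positive barcodes, at 236 CPM, against 3.86% of all barcodes, at 180.3 CPM. A form of Vmat is known in fly glia, so repo-positive barcodes are no background for that gene. Barcodes below 100 UMIs, taken as free RNA, held 21.4 CPM of Tbh, 81.2 CPM of Vmat and 4.19 CPM of Tdc2.

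A single Tbh UMI was thus at the background level, and Tbh was not detectably more frequent at 1 Vmat UMI than without Vmat. For most of the 241 members without Tdc2 the label's signature was therefore not shown, and they are called here by the rule. Of these members, 21 had 13 to 233 Vmat UMIs (median 45) with 1 to 10 Tbh UMIs. Members with Tdc2, as a set, held more Vmat than the 1 UMI that the rule asks for, with a median of 51. Vmat, Tdc2 and Tbh are genes of the rule, so these counts describe the members and are no separate evidence for the label. Of these 113, 27 held a single UMI of Tdc2 and Tbh together. For the 5 with 1 Vmat UMI the signature was not shown, since Tdc2 was no more frequent there than without Vmat (0.210% against 0.269%). The comparisons below were run for all members and for each set alone.

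The edges of the rule show how many barcodes hang on each condition. Of the members, 2 lay within 100 UMIs above the depth limit, and 2 barcodes within 100 UMIs below it met the rest of the rule. The mitochondrial limit alone kept out 26 barcodes, a UMI of ple, Trh or SerT alone 88, and repo alone 6. Lack of Vmat alone kept out 8702 barcodes, of which 304 held Tdc2. Lack of Tdc2 and Tbh kept out 2714 barcodes with Vmat.

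The classes compared with the members were built from the same libraries by the same kind of rule. They were 1241 dopaminergic barcodes (Vmat and ple, none of the other markers), 112 serotonergic barcodes (Vmat with Trh or SerT, none of the others) and 118790 other repo-negative barcodes. By selection Tdc2 and Tbh are at 0 in the first 2. Vmat, which chose all 3 amine classes, was at 25928 CPM in members with Tdc2, 1737 in members with Tbh alone, 6736 in dopaminergic, 12029 in serotonergic and 132 in other barcodes.

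Members with Tdc2 differed among themselves in neuropeptides and in a fast transmitter. SIFa encodes the SIFamide neuropeptide, Mip the myoinhibitory peptides, Dh31 a calcitonin-like diuretic hormone, and VGlut the vesicular glutamate transporter. Counting a gene as present at 2 or more UMIs, 18 of the 113 barcodes held SIFa and Mip, 15 held SIFa without Mip, 28 held VGlut, and 52 held neither SIFa nor VGlut. No barcode held SIFa and VGlut together. These sets were drawn after the values were seen and are a description, with no test.

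The SIFa and Mip set was uniform in several other genes. All 18 barcodes held Dh31 and Lim1, a LIM-homeodomain transcription factor, 16 held Dl, the Notch ligand Delta, and 14 held 5-HT2B, a serotonin receptor. Tbh was detected in 2 of them. They came from both genotypes, 8 from controls and 10 from knock-ins, and from 4 of the 6 libraries.

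In the 15 barcodes with SIFa and no Mip, Lim1 was present in all, Dl in 8, Dh31 in 6 and 5-HT2B in 4, and Tbh was detected in 5. Their median Vmat was 110 UMIs, against 34.5 in the SIFa and Mip set. The 28 VGlut barcodes held no Dl, no Dh31 and no 5-HT2B at that level. Among them 16 held Lim1 and 9 held a Tbh UMI. In the remaining 52 barcodes, which were shallower with a median of 2237.5 UMIs, 32 held Lim1, 17 held Tbh and 9 held Dl.

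**Figure D3:**
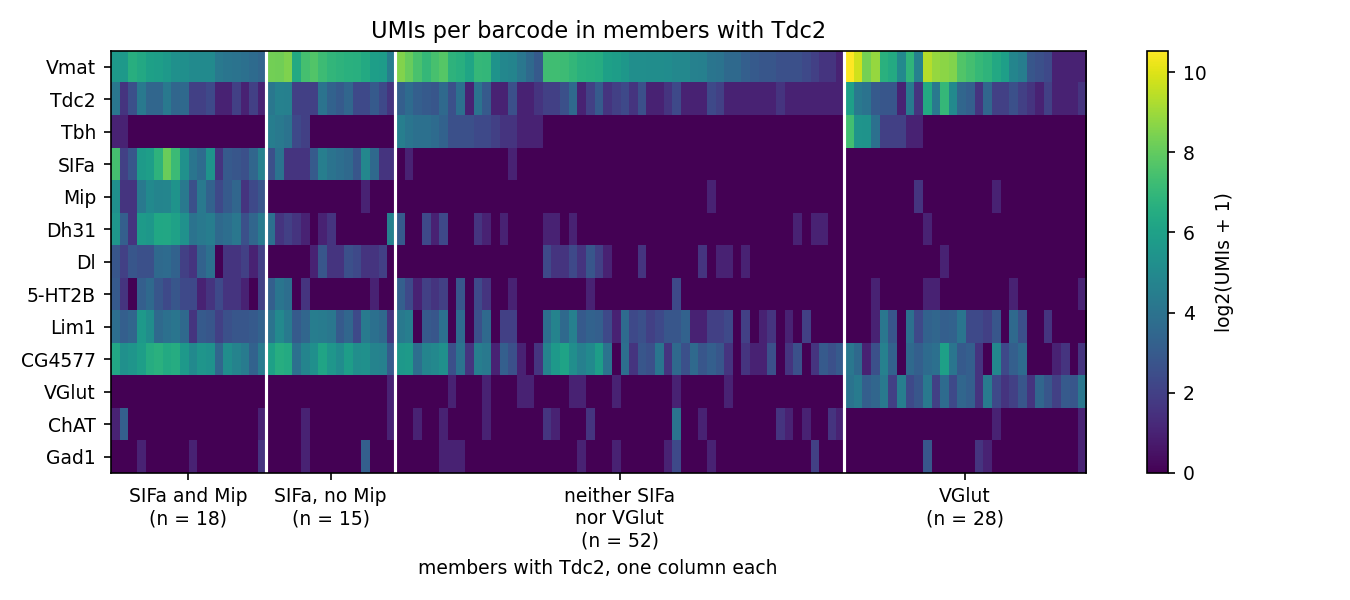
UMIs per barcode, as log2(UMIs + 1), of 13 genes (rows) in the 113 members with Tdc2 (1 column each), ordered by the 4 sets defined by SIFa, Mip and VGlut at 2 or more UMIs. Dh31 and Dl are high in the 18 SIFa and Mip barcodes and near 0 in the 28 VGlut barcodes, while Lim1 is present in all 4 sets.

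SIFa-rich barcodes were few in the whole experiment. Of 23 barcodes with 10 or more SIFa UMIs, 19 were members, all with Tdc2. For Mip the same count was 97 barcodes with 9 members, again all with Tdc2, and for Dh31 it was 1945 barcodes with 28 members, 17 of them with Tdc2. The highest member held 281 SIFa UMIs, and a barcode outside the members held 1222.

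Against dopaminergic neurons, members had more RNA of the peptides SIFa and Dh31 and of Delta, and less of the dopamine transporter DAT, the peptide precursor sNPF and the decarboxylase Ddc. The comparison used control 2 and knock-ins 1 to 3, the libraries with at least 10 barcodes in each class, with library as a block. Of 4354 features tested by edgeR's quasi-likelihood test (Benjamini-Hochberg adjusted p under 0.05), 310 were called, or 7.12%, with 173 higher in members (3.97%) and 137 lower (3.15%). Without control 2 the count was 192. The median log2 fold change over all features was 0.01.

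SIFa was at 1104, 334, 275 and 441 CPM in the members of control 2 and knock-ins 1, 2 and 3, and at 0, 2.15, 1.13 and 0 CPM in their dopaminergic barcodes. Every member value lay far above every dopaminergic one. The log2 fold change was 8.61 ± 0.33 (SE, n = 4 libraries), with an adjusted p of 1.46e-12 by edgeR. The RNA sat in the Tdc2 set, at 2325 CPM over all libraries against 1.95 CPM in members with Tbh alone.

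Dh31 was at 885, 522, 438 and 1408 CPM in members of the same 4 libraries and at 84.0, 73.1, 59.9 and 17.8 CPM in dopaminergic barcodes, without overlap. Its log2 fold change was 3.29 ± 0.23, with an edgeR adjusted p of 8.38e-09. It passed in both sets when each was tested alone, at 3.86 in members with Tdc2 and 2.40 in members with Tbh and no Tdc2. Dl had a log2 fold change of 5.54 ± 0.42 (edgeR adjusted p 3.03e-08), and 155 of its 161 UMIs in members came from the Tdc2 set.

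DAT, which takes dopamine back up, was at 37.7, 57.6, 29.4 and 271 CPM in members and at 1497, 991, 617 and 2034 CPM in dopaminergic barcodes. The groups did not overlap, and the log2 fold change was -4.32 ± 0.23 with an edgeR adjusted p of 2.11e-10. Of the members, 6 with Tdc2 and 5 with Tbh alone held 2 or more DAT UMIs, all 11 with 10 or more Vmat UMIs. These 11 barcodes had no ple UMI, as the rule requires, and whether they are dopaminergic barcodes in which ple was missed was not tested. sNPF, a peptide of Kenyon cells and other neurons, was at 405, 545, 1030 and 0 CPM in members and at 3402 to 4643 CPM in dopaminergic barcodes (log2 fold change -3.06 ± 0.33, edgeR adjusted p 3.09e-06). Ddc was lower in the members of all 4 libraries (-1.11, edgeR adjusted p 3.09e-06).

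The RNA asRNA:CR44165, annotated as antisense, was absent from the dopaminergic sums and at least 57.4-fold higher in members. It lies on the minus strand of 2R at 6682521 to 6683749 (Ensembl BDGP6), past the 3' end of Tdc2 on the same strand. Members were chosen by Tdc2 and dopaminergic and serotonergic barcodes lack it by selection, so the values of this RNA, here and below, are a description that follows the rule's marker. Whether its 3' tags are separate from those of Tdc2 transcripts was not tested.

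The other large increases over dopaminergic barcodes were Sox21a (6.43), a Sox transcription factor, CG14687 (5.93), CG30377 (3.08), the GATA factor grn (3.04), the neprilysin peptidase Nep2 (2.96) and the BTB factor lov (2.71), all as log2 fold changes of all members. Tested by set, Sox21a, CG30377 and Nep2 passed in members with Tdc2 and were too low to be tested in members with Tbh alone. CG14687 and grn were the reverse, at 6.20 and 3.34 in members with Tbh alone and below the expression filter in members with Tdc2.

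The largest decreases beside DAT and sNPF were nrv1 (-4.49), a sodium pump subunit, CG8916 (-3.36), the ETS factor Ets65A (-3.35), the homeodomain factor Dll (-3.35), the peptide receptor Dh44-R1 (-3.02), CG34377 (-3.01), the opsin Rh7 (-2.95) and the zinc finger factor ham (-2.87). Each of these 8 passed in both sets of members. These genes are therefore lower than in dopaminergic barcodes whether or not Tdc2 was detected.

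By gene list, 4 of 16 tested amine receptors were higher in members than in dopaminergic barcodes (5-HT2B, Octbeta2R, 5-HT7 and Dop1R1) and 1 was lower (Dop2R), with a median log2 fold change of 0.26 beside 0.01 over all features. Of 29 tested transcription factors of the list, 8 were higher (Lim1, zfh2, toy, mirr, bab1, vvl, acj6, zfh1) and 4 lower. Of 14 neuropeptide receptors 5 were lower and none higher. Of the 13 mitochondrially encoded genes 6 were lower, and the heat shock genes Hsp23, Hsp27 and Hsp70Bc with kay were the 4 higher of 17 in the activity and stress list. The 4 vesicular and enzymatic markers of fast transmitters that passed split by direction, with Gad1 and VGlut higher and VAChT and ChAT lower.

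The fast transmitter genes were also tested by set. In members with Tdc2, VGlut was higher than in dopaminergic barcodes (log2 fold change 0.78, edgeR adjusted p 0.0129), and VAChT (-2.17), ChAT (-1.78), ChT (-1.89) and Gad1 (-1.19) were lower. In members with Tbh alone, Gad1 was the 1 gene of the 6 that passed, and it was higher (log2 fold change 1.90, edgeR adjusted p 0.000296). The activity and stress list had 7 higher of 17 in members with Tdc2 (sr, Hsp70Bc, Hsp83, DnaJ-1, Hsp23, Hsp27, CG46385) and 1, kay, in members with Tbh alone. The difference between the sets was not tested in this comparison.

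Against dopaminergic barcodes 469 of 4305 features were called for members with Tdc2 (10.9%) and 178 of 4706 for members with Tbh alone (3.78%), of which 231 and 148 were among the 310. Both used control 2 and knock-ins 1 and 2. The genes of peptide maturation were tested in members with Tdc2. The convertase chaperone 7B2 (0.62), the amidating enzymes Phm (0.85) and Pal2 (0.65), the carboxypeptidase svr (0.77) and the dense-core vesicle protein IA-2 (0.51) were 5 higher of 8 tested, and none was lower. The list's median log2 fold change was 0.56 beside -0.02 over all features.

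**Figure D4:**
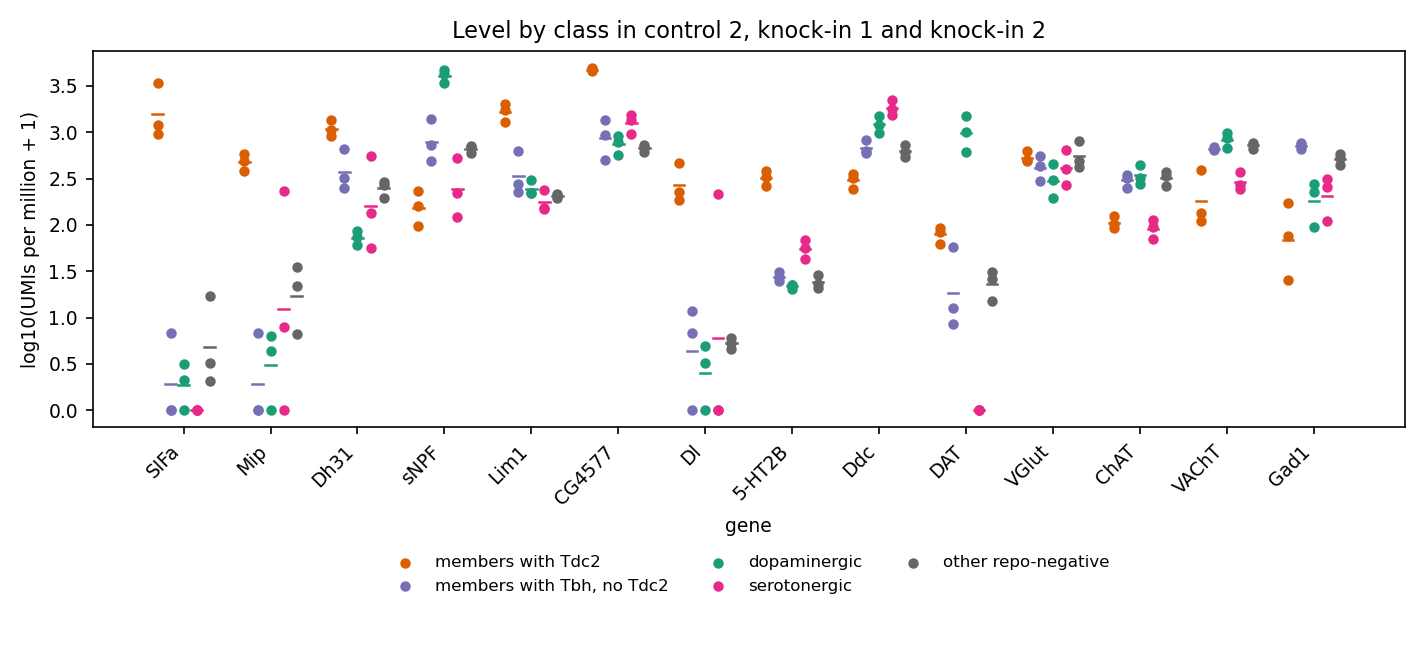
Level, as log10(CPM + 1), of 14 genes in members with Tdc2, members with Tbh and no Tdc2, dopaminergic, serotonergic and other repo-negative barcodes of control 2, knock-in 1 and knock-in 2 (1 point per library, dash at the mean of the 3 plotted values). In all 3 libraries SIFa, Mip, Lim1, CG4577 and 5-HT2B are highest in members with Tdc2, and DAT and sNPF are highest in dopaminergic barcodes.

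Against serotonergic neurons, which number 112, members had more SIFa and Lim1 RNA and less Ddc, the decarboxylase that completes serotonin synthesis, and less of the receptors 5-HT1A and TyrR. The test used control 2 and knock-ins 1 and 2. It called 41 of 3168 features (1.29%), 28 higher (0.884%) and 13 lower (0.41%). The count was 96 without control 2 and 63 without knock-in 2.

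SIFa had no UMI in any serotonergic barcode, and members exceeded the floor of 3 UMIs over the class at least 72.3-fold. Lim1 was at 838, 730 and 689 CPM in members of control 2 and knock-ins 1 and 2, and at 147, 151 and 237 CPM in serotonergic barcodes, without overlap (log2 fold change 2.03 ± 0.23, edgeR adjusted p 0.00104, n = 3). Tested by set, Lim1 passed in members with Tdc2 (3.24) and not in members with Tbh alone (0.85, edgeR adjusted p 0.233).

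Ddc was at 675, 536 and 494 CPM in members and at 1795, 1536 and 2235 CPM in serotonergic barcodes (log2 fold change -1.72 ± 0.19, edgeR adjusted p 0.00103). All 3 libraries showed the lower value in members, and the call held in both sets. In members with Tdc2, with or without Tbh, Ddc was also below other repo-negative barcodes, at 355, 322 and 241 CPM against 735, 603 and 537 CPM (log2 fold change -1.18, edgeR adjusted p 8.85e-10). In control 3 and knock-in 3, with 3 and 7 such members, it was at 1401 and 1479.7 CPM, above the other barcodes. There 1 barcode of knock-in 3 held 48 of 56 Ddc UMIs, and 1 of control 3, which also held 20 DAT UMIs, had 9 of 14.

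The other genes higher than in serotonergic barcodes were the Sox factor D and Nep2, each with no UMI in serotonergic barcodes and at least 14.2- and 7.03-fold higher, then CG14687 (5.78), sosie (4.89), the nuclear factor dac (3.44), the POU factor acj6 (2.34) and mtt (2.10), a metabotropic glutamate receptor relative, as log2 fold changes. The RNA beside Tdc2, asRNA:CR44165, also had no UMI in serotonergic barcodes, at least 7.20-fold below members. Lower were the receptor Lgr1 (-2.79), the peptides Dh44 (-2.49) and Nplp1 (-1.18), the amino acid transporter JhI-21 (-1.67), 5-HT1A (-1.64), TyrR (-1.53), the adhesion protein Dscam3 (-1.53), Hsp67Ba (-1.32) and CG1275 (-1.04). JhI-21, Hsp67Ba and CG1275 did not pass in members with Tdc2, where the values were -0.16, -0.79 and -0.09, and Lgr1 was below the expression filter there.

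TyrR, the tyramine receptor, was at 12.2, 13.7 and 9.28 CPM in members with Tdc2 of control 2 and knock-ins 1 and 2, and at 188, 178 and 181 CPM in serotonergic barcodes (log2 fold change -3.83, edgeR adjusted p 2.30e-05). Of 15 amine receptors tested in this set, 3 were higher (Octbeta1R, 5-HT2A, 5-HT2B) and 4 lower (Oamb, TyrR, 5-HT1A, Dop2R). In members with Tbh alone, 5-HT1A was the 1 lower of 15 tested and none was higher, so TyrR did not pass there. The comparison of members with Tdc2 called 110 of 2260 features (4.87%) and that of members with Tbh alone 59 of 2757 (2.14%). In members with Tbh alone the fast transmitter genes VAChT (1.16), ChAT (1.70), ChT (1.77) and Gad1 (1.72) were 4 higher of 6 tested, while in members with Tdc2 none of 5 passed. The fat body genes Yp1 (1.204) and Yp2 (1.13) were higher in members with Tbh alone as well, and their part in the result was not tested.

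Against all other repo-negative barcodes, members were rich in SIFa, Mip, Dh31, Dl and Lim1 RNA, of which SIFa, Mip and Dl were high in the Tdc2 set alone, and members were poor in RNA of other peptide classes, of photoreceptors and of Kenyon cells. The test used control 2 and knock-ins 1 to 3 and called 285 of 8758 features (3.25%), 145 higher (1.66%) and 140 lower (1.6%). The count was 138 without control 2. DESeq2 called 91 higher and 32 lower, and edgeR with no library block 38 higher and 2 lower. The median over all features was -0.05.

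This comparison was also run by set. Members with Tdc2, with or without Tbh, gave 715 calls of 10078 features (7.09%), 240 higher and 475 lower, with a median of -0.27 over all features. Members with Tbh alone gave 80 of 10222 (0.783%), 37 higher and 43 lower. Of the 285 calls, 230 were shared with the Tdc2 set and 65 with the Tbh set. The difference between the sets was not tested in this comparison.

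For SIFa the values were 1104, 334, 275 and 441 CPM in members of control 2 and knock-ins 1 to 3, and 2.27, 15.95, 1.06 and 0.0852 CPM in other barcodes, without overlap (log2 fold change 7.48 ± 0.27, edgeR adjusted p 2.19e-66). In members with Tdc2 the log2 fold change was 8.67, and in members with Tbh alone it was -1.68 and did not pass (edgeR adjusted p 0.962). Nep2 likewise was at 5.10 in the Tdc2 set and at -1.39 (edgeR adjusted p 0.962) in the Tbh set.

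Mip was at 587, 383 and 492 CPM in members with Tdc2 of control 2 and knock-ins 1 and 2, and at 5.61, 33.8 and 20.8 CPM in other barcodes (log2 fold change 4.79, edgeR adjusted p 7.78e-117). In control 3 and knock-in 3, with 3 and 7 such members, no Mip UMI was found. In members with Tbh alone Mip was lower than in other barcodes, with 2 UMIs in all (log2 fold change -3.34, edgeR adjusted p 0.000811). Lim1 was at 1290, 2020 and 1716 CPM in the same members against 208, 213 and 192 CPM (log2 fold change 2.87, edgeR adjusted p 1.64e-78). Both genes were higher in the Tdc2 members of all 3 libraries.

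5-HT2B, a serotonin receptor, was at 324, 383 and 260 CPM in members with Tdc2 against 20.0, 21.9 and 27.5 CPM in other barcodes (log2 fold change 3.68, edgeR adjusted p 3.48e-58). CG4577, a gene chosen after its values were seen, was at 4941, 4519 and 4749 CPM against 729, 692 and 606 CPM (log2 fold change 2.66, edgeR adjusted p 5.11e-70). Its 3 values in members lay close together, and the heat map of members with Tdc2 shows it across all 4 sets. Pu, the first enzyme of pterin cofactor synthesis for the aromatic hydroxylases, was at 116, 116 and 64.9 CPM against 16.9, 17.4 and 14.4 CPM (log2 fold change 2.49, edgeR adjusted p 1.55e-11).

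The remaining large increases of all members over other barcodes were asRNA:CR44165 (7.16, beside the marker Tdc2), CG14516 (4.79), Dl (4.395), Sox21a (4.36), CG30377 (4.06), CG30053 (3.66), JhI-21 (3.32) and CG14687 (3.24). Of these, CG14516, Dl, Sox21a, CG30377 and JhI-21 passed in the Tdc2 set and not in the Tbh set. CG14687 passed in the Tbh set (3.29) and was at -1.27 in the Tdc2 set (edgeR adjusted p 0.293). CG30053 passed in the Tbh set alone.

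The largest decreases were of peptides and hormones made by other neurons, namely NPF (-7.01), Pdf (-6.07), ITP (-4.16), Orcokinin (-3.27), CCHa1 (-3.16) and Ilp2 (-2.98), of the opsin Rh2 (-4.37) and the photoreceptor arrestin Arr2 (-3.16), and of CG2145 (-3.63) and the chitinase Cht6 (-2.89). NPF had 0, 0, 2.85 and 0 CPM in members against 226, 12.9, 16.8 and 14.7 CPM in other barcodes, scaled by the trimmed mean of M-values (TMM). Pdf had 1.89, 1.96, 2.85 and 0 CPM against 89.1, 220, 41.7 and 437 CPM on the same scale. ITP crossed to a log2 fold change of 0.13 when the deepest 1% of barcodes was left out. With no library block 9 of these 10 decreases, all but Pdf, no longer passed. By DESeq2, 6 of these 10 had an adjusted p. Of the 6, NPF, Rh2, ITP, Orcokinin and Arr2 did not pass and Pdf did. CCHa1 and CG2145 passed in neither set of members, Ilp2 not in the Tbh set and Cht6 not in the Tdc2 set. Without control 2, CCHa1 and CG2145 did not pass.

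By list, of 32 neuropeptides tested, 4 were higher (SIFa, Mip, Dh31 and Crz) and 9 lower, with a median log2 fold change of -0.66 beside -0.05 over all features. Of 9 peptide processing genes 3 were higher (7B2, Pal2, Phm) and none lower. All 4 tested photoreceptor markers were lower, 6 of 8 Kenyon markers were lower, 3 of 3 fat body markers were lower, and 8 of 13 mitochondrially encoded genes were lower. A single barcode of knock-in 2 held 2618 of the 2669 Crz UMIs of all members. In members with Tbh alone 2 of 36 neuropeptides were higher (Crz and Dh31) and 5 lower (Pdf, NPF, Mip, ITP, Orcokinin), beside 3 higher and 14 lower of 36 in members with Tdc2.

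In members with Tdc2 the fast transmitter genes were low against other barcodes. ChAT was at 91.7, 123 and 102 CPM in control 2 and knock-ins 1 and 2 against 368, 339 and 261 CPM, and Gad1 at 24.5, 171 and 74.2 CPM against 582, 439 and 527 CPM. Neither gene's groups overlapped. With VAChT and ChT they were the 4 lower of 6 tested, and the median of the list was -1.92 beside -0.27 over all features. VGlut was at 495, 623 and 482 CPM against 415, 491 and 799 CPM, which overlap (log2 fold change -0.16, edgeR adjusted p 0.769). In members with Tbh alone Gad1 was higher (0.41, edgeR adjusted p 0.0446) and VGlut lower (-0.46, edgeR adjusted p 0.0280), and the other 4 genes did not pass.

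Among the amine receptors, 5-HT2B and 5-HT7 were higher in members with Tdc2 than in other barcodes, and Oamb, TyrR, Dop1R2, DopEcR and 5-HT1A were lower, of 17 tested. Oamb, an octopamine receptor, was at 48.9, 47.9 and 0 CPM against 86.4, 84.9 and 84.3 CPM (log2 fold change -1.42, edgeR adjusted p 0.00127). The octopamine receptors Octbeta1R (0.08), Octbeta2R (-0.12) and Octalpha2R (-0.29) did not pass, with edgeR adjusted p of 0.850, 0.834 and 0.461. Of 22 potassium and sodium channel genes 10 were lower and 1, Elk, was higher, with a list median of -0.58. Over all features of this comparison the median was -0.27, and 7.09% were called. The transcription factor list gave 2 higher (Lim1 and zfh2) and 20 lower of 51, with a list median of -1.45. Of 21 activity and stress genes 7 were higher (Hsp68, sr, Hsp70Bc, Hsp26, Hsp23, Hsp27, CG46385) and none lower.

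Of 38 neuropeptide receptors tested in this set, 3 were higher and 4 lower, with a list median of -0.01 beside -0.27 over all features. ETHR, the receptor of ecdysis triggering hormone, had a log2 fold change of 3.21 (edgeR adjusted p 0.000231) and CrzR, the corazonin receptor, one of 3.18 (edgeR adjusted p 4.64e-11). Both were also higher than in dopaminergic barcodes, at 3.90 and 3.63. Dh31-R, the receptor of the Dh31 peptide, was higher than in other barcodes (1.31, edgeR adjusted p 0.0305).

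Detection of Tbh was used to set octopaminergic against tyraminergic candidates. Over all members, 152 of 2741 features differed between those with Tbh and those without (5.55%), with 72 higher with Tbh (2.63%) and 80 lower (2.92%). The libraries were control 2 and knock-ins 1 and 2, and the count was 28 without knock-in 1. Since every member without Tbh holds Tdc2 by the rule, and 241 of the 274 members with Tbh do not, this contrast is largely one of the 2 sets described above.

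Higher in members with Tbh were CG15537 (4.37), CG14989 (3.78), acj6 (3.61), CG14687 (3.53), the choline transporter ChT (2.80), the POU factor vvl (2.79), TyrR (2.66), beat-Ic (2.59), the BTB factor bab2 (2.57) and CG6006 (2.48), as log2 fold changes. Lower were Dl (-4.91), SIFa (-4.53), Mip (-4.45), CG31676 (-3.33), JhI-21 (-3.02), asRNA:CR44165 (-2.79, where every member without Tbh holds Tdc2), Sox21a (-2.39), pxb (-2.28), the adenylate cyclase Ac76E (-2.24) and the immunoglobulin protein hbs (-2.23). By list, Gad1, ChT, VAChT and ChAT were the 4 higher of 6 fast transmitter genes. The fat body genes Yp1 and Yp2 were both higher in members with Tbh.

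Within members that hold Tdc2, which take out that difference, 52 of 1469 features differed with Tbh (3.54%), 32 higher and 20 lower. Of these, 28 were among the 152. This comparison was added after the data were seen. It rests on 11, 11 and 9 barcodes with both genes against 22, 20 and 25 with Tdc2 alone in control 2 and knock-ins 1 and 2. Median depth was 7476, 2619 and 3047 UMIs with Tbh and 2135.5, 3361.5 and 2600 without, and its part in the result was not tested.

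CG2269 was at 7566, 5277 and 5013 CPM in barcodes with both genes and at 855, 486 and 470 CPM in those with Tdc2 alone, scaled by TMM. All 3 libraries showed the higher value with Tbh, without overlap, at a log2 fold change of 3.32 ± 0.19 (edgeR adjusted p 8.48e-08). Octalpha2R, an octopamine receptor, was at 622, 801 and 877 CPM with Tbh and 92.4, 145 and 94.0 CPM without on the same scale (log2 fold change 2.75 ± 0.32, edgeR adjusted p 0.000212). Its groups did not overlap either. These barcodes are those in which the enzyme of octopamine synthesis was detected.

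The neprilysins Nep1 (2.82) and Nep2 (2.75), dac (3.39), CG4341 (2.82) and 5-HT2B (1.27) were also higher with Tbh. Ms, the myosuppressin peptide, was at 137, 164 and 157 CPM with Tbh and had no UMI in barcodes with Tdc2 alone of these libraries. It rests on 24 UMIs in 6 barcodes, of which 4, spread over the 3 libraries, held 2 or more. Lower with Tbh were Dl (-2.87), unc-13-4A (-2.56), SIFa (-1.91, edgeR adjusted p 0.0177) and Dh31 (-1.74), and Mip, at -1.81, did not pass (edgeR adjusted p 0.0975). SIFa was at 2302, 329 and 31.3 CPM with Tbh against 4262, 1634 and 1370 CPM without. These groups overlap, since control 2 with Tbh exceeded knock-ins 1 and 2 without it. Lim1 (-0.11), CG4577 (-0.07) and asRNA:CR44165 (0.088) did not pass.

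The comparison of genotypes asks whether the tau change alters how many such cells are found and what they express. Members made up 0.0700%, 0.357% and 0.127% of passing barcodes in controls 1 to 3 and 0.357%, 0.309% and 0.137% in knock-ins 1 to 3. The groups overlap, with means of 0.185% ± 0.152 and 0.268% ± 0.116 (SD, n = 3 each; exact two-sided permutation test, p = 0.4). The smallest p that 3 against 3 libraries allow is 0.1, so no share could pass 0.05. Fewer cells and less RNA per cell cannot be told apart in these shares.

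With every barcode thinned to 500 UMIs, so that depth could not add detections, the shares were 0.0583%, 0.0692% and 0.0282% in controls and 0.0728%, 0.0962% and 0.0872% in knock-ins. These values do not overlap, at the smallest p of 0.1 (exact permutation test), and rest on 2 to 38 barcodes per library. The nearest were control 2, with 19 barcodes, and knock-in 1, with 22. The thinning was a single random draw, so the spread over draws is not known. It also removed UMIs of ple, Trh, SerT and repo, so barcodes outside the rule could enter. All members with Tdc2, with or without Tbh, made up 0.0583%, 0.120% and 0.0424% in controls and 0.103%, 0.0861% and 0.0872% in knock-ins, which overlap (exact permutation test, p = 0.5). Thinned, their shares also overlapped (exact permutation test, p = 0.8).

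**Figure D5:**
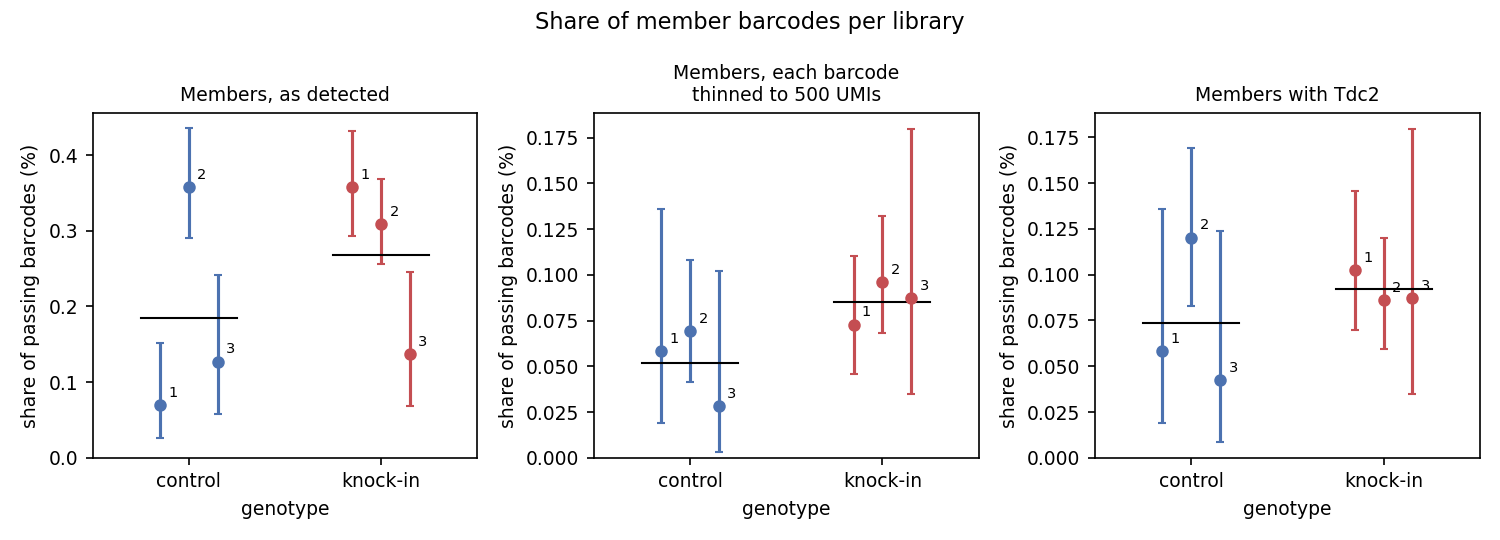
Share of passing barcodes (percent) that are members, as detected, after thinning each barcode to 500 UMIs, and for members with Tdc2, by genotype; points are libraries with their replicate number, bars exact 95% binomial intervals, and lines the mean of 3 libraries. The genotypes overlap as detected and for members with Tdc2, and not after thinning, which was a single random draw.

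Median depth per member was 5838, 4196.5 and 1681 UMIs in controls and 3448.5, 2421.5 and 4589 UMIs in knock-ins. The groups overlap (means 3905 ± 2094 and 3486 ± 1084, SD, n = 3 each; exact two-sided permutation test, p = 0.8). The sign of the difference turned when control 1, knock-in 2 or the deepest 1% of barcodes was left out.

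For expression, 2 of the 3 control libraries had under 10 members, so there was no replicated test by the rule set for it. The summed members held 557007 UMIs in controls, nearly all from control 2, and 954408 in knock-ins. Of 3395 features with at least 50 UMIs, 135 lay past a 2-fold difference (3.98%), 64 higher (1.89%) and 71 lower (2.09%) in knock-ins. Without control 2 the count was 487. These numbers describe the sums and carry no p-value. Fat body markers in the other repo-negative barcodes summed to 625 to 4236 CPM in controls and 18.7 to 484 CPM in knock-ins, and their part in the genotype values was not tested.

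A test over all 6 libraries, added after the data were seen, called 1 of 2798 features (0.0357%), and 85 had an unadjusted p under 0.05. DESeq2 also called 1. The feature was FBti0063565, a transposable element insertion, at 0, 5.95 and 0 CPM in controls and 132, 168 and 153 CPM in knock-ins. The groups do not overlap (log2 fold change 4.78 ± 0.59, edgeR adjusted p 0.0106). No feature was called without control 2 or without knock-in 1. The same insertion was also higher in knock-ins among other repo-negative barcodes, at 5.29 to 9.66 CPM in controls against 41.1 to 114 CPM, and near-identical copies of an insertion can share reads.

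SIFa was lower in knock-ins in every library without passing that test. In members with Tdc2 it was at 11204, 3388 and 2202 CPM in controls and 1191, 955 and 687 CPM in knock-ins, without overlap. Over all members the log2 fold change was -3.35 ± 0.78, with an unadjusted edgeR p of 0.00107 and an adjusted p of 0.996, and it was -1.46 without control 1. In control 1, 256 SIFa UMIs came from 3 barcodes. Barcodes with 2 or more SIFa UMIs were 3 of 5, 13 of 33 and 1 of 3 members with Tdc2 in controls and 7 of 31, 7 of 34 and 2 of 7 in knock-ins. Every control fraction lay above every knock-in fraction, though that of control 3 is 1 barcode of 3. These fractions were counted after the SIFa values were seen and were not tested. The smallest p of an exact permutation test of 3 against 3 libraries is 0.1. Within these SIFa barcodes the level was 16586, 8788 and 3800 CPM in controls and 3899, 4813 and 2968 CPM in knock-ins. Those levels overlap, with control 3 below knock-ins 1 and 2. With the expression filter dropped to features that are not all zero, 44 of 10293 features were called, SIFa among them (log2 fold change -3.07, edgeR adjusted p 3.63e-12). Over the other alternatives its adjusted p by edgeR or DESeq2 ran from 0.105 to 0.9997.

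The other features nearest to passing, none of which passed, were CG12236 (log2 fold change 1.81), Hsp23 (-1.25) and shot (1.02), a spectraplakin that links microtubules and actin. Hsp23, a small heat shock protein, was at 2662, 1203 and 2084 CPM in controls and 566, 1078 and 795 CPM in knock-ins, scaled by TMM. The lowest control lay just above the highest knock-in. All had an adjusted p of 0.996 by edgeR.

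The genotype difference in members was also set against that in other repo-negative barcodes of control 2 and knock-ins 1 to 3 by an interaction term. It called 15 of 10730 features (0.14%), 8 with a more positive knock-in effect in members (0.0746%) and 7 with a more negative one (0.0652%), SIFa (-2.16) and Mip (-3.02) among the latter. The single control library leaves no check on the control side, and 285 features had an unadjusted p under 0.05. The count was 24 without knock-in 3 and 7 without knock-in 2. In other barcodes SIFa was at 2.27 CPM in control 2 and 15.95, 1.06 and 0.0852 CPM in knock-ins 1 to 3, and Mip at 5.61 and at 33.8, 20.8 and 11.7 CPM. Without knock-in 1, where SIFa in other barcodes was highest, the SIFa difference was -0.08 and did not pass (edgeR adjusted p 1). The Mip difference passed without each knock-in library, from -3.64 to -2.77.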

How the data were processed

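The deposited values were raw counts of UMIs per feature and barcode from 6 brain libraries (Chromium Next GEM 3' chemistry, per the labels), with barcodes not filtered to cells. Cell Ranger 4 wrote them per the file headers, while the submitters' processing notes list Cell Ranger 6.0. Genome build, annotation and strand use are not given in the sources used here. UMIs were summed per library and class. Tests used edgeR 4.0.16 (R 4.3.3; TMM, filterByExpr, quasi-likelihood, two-sided, adjusted p threshold 0.05), with DESeq2 1.42.0 as an alternative, in libraries with at least 10 barcodes per class (5 for Tbh within Tdc2 members); marker genes of the rules stayed in library sizes and were not tested. The steps were tested on simulated data. There the interaction recovered 13% of 4-fold and 49% of 8-fold changes. The class and Tbh comparisons recovered 87.0% to 95.9% of 4-fold changes. Members and gene lists were chosen with earlier results of these data known. Named genes are the 10 largest increases and 10 largest decreases that passed, the 5 smallest p where few passed, and list genes. Tests by set of members were added after the data were seen. No doublet caller was run. Instead the deepest 1% of barcodes was left out as an alternative. Other alternatives were stricter members (2 UMIs), minimum depth, normalization, filter, block and each library left out. Of 22064 features 22016 matched the annotation. The RNA sequences of the genes were not used here.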

Additional observations from a re-analysis of the deposited data

Results flagged for a closer look

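The genotype difference in members differed from that in other repo-negative barcodes for 15 of 10730 features by the interaction term (edgeR adjusted p under 0.05, 0.14%), in control 2 against knock-ins 1 to 3, so each rests on 1 control library. Values are log2 differences of the knock-in effect, members minus other barcodes. Positive, in 8 features, were CG14439 (14.002), CG3168 (13.69), Crz (7.28), AstA (6.997), lncRNA:CR44832 (5.20), CG12239 (4.37), Eaat1 (3.83) and CCHa2 (3.62). Negative, in 7 features, were Hdc (-13.31), CG15082 (-7.98), Scr (-4.51), pb (-4.23), tey (-3.33), Mip (-3.02) and SIFa (-2.16).

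Most of these rest on 1 barcode. A single barcode held 98.1% of the Crz UMIs of all members (2618 of 2669, knock-in 2), 98.0% of those of CG15082 (397 of 405, control 2), all 24 of Hdc (control 2), 91.2% of lncRNA:CR44832 and 88.0% of CG12239 (knock-in 1), 88.6% of CCHa2, 78.0% of AstA, 77.3% of pb, 75.0% of CG14439, 65.1% of CG3168, 53.0% of Eaat1, 45.8% of Scr and 35.1% of tey. SIFa (24.7%) and Mip (15.3%) were spread over more barcodes within the members. Outside the members, 1 barcode held 1222 SIFa UMIs, beside 1675 in all other repo-negative barcodes of control 2 and knock-ins 1 to 3. Its library is not given here, and its part in the SIFa difference was not tested. For SIFa the members fell from 1104 CPM in control 2 to 334, 275 and 441 CPM in knock-ins, and for Mip from 195 to 108, 141 and 0 CPM. In other barcodes SIFa was at 2.27 CPM in control 2 and at 15.95, 1.06 and 0.0852 CPM in knock-ins, and Mip at 5.61 and at 33.8, 20.8 and 11.7 CPM. Without knock-in 1 the SIFa difference was -0.08 and did not pass (edgeR adjusted p 1), while the Mip difference passed without each knock-in library (-3.64 to -2.77).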

How the results depend on the processing

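Alternatives listed at the outset kept the direction of the share difference, which ranged from 0.0257 to 0.169 percentage points (exact permutation test, p from 0.1 to 0.8; members with Tdc2, added later, 0.0183, and thinned 0.00857). The depth difference was -419 UMIs and reversed without control 1 (548), without knock-in 2 (114) and without the deepest 1% (923); leaving out 1 library gave -1531 to 548. Against dopaminergic barcodes 310 calls became 159 with no library block, 469 for members with Tdc2, 178 for Tbh alone, and 192 to 368 without 1 library. Against serotonergic barcodes 41 became 116 with only all-zero features left out, 10 with no block, 110 for Tdc2, and 42 to 96 without 1 library. Against other barcodes 285 became 619 with 2 marker UMIs, 123 by DESeq2, 40 with no block, 715 for Tdc2, 80 for Tbh alone, and 138 to 354 without 1 library. The Tbh contrast, 152, became 52 within Tdc2 and 28 to 211 without 1 library. The interaction, 15, became 7 to 24. The group sums, 135 past 2-fold, became 84 with 2 marker UMIs and 104 to 487 without 1 library. The cause was not tested.

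The test over 6 libraries, 1 call, gave 44 with only all-zero features left out and 0 to 4 without 1 library. The planned DESeq2, size factor, filter and block alternatives of the genotype comparison had no test to vary with 1 control library, and were run in that test. With replicate numbers as a block it made 0 calls (65 at an unadjusted p under 0.05). The numbers share no stated source. Correlations of same-numbered libraries' deviations were 0.26, 0.07 and 0.32, and those of differently numbered libraries ran from -0.31 to 0.15. Whether the numbers pair the libraries was not tested.

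Single genes that reversed were SIFa (-1.68) and Nep2 (-1.39) against other barcodes for Tbh alone, CG14687 (-1.27) for Tdc2, ITP (0.13) without the deepest 1%, CG14989 (-0.81) and asRNA:CR44165 (0.088) in the Tbh contrast within Tdc2, and CCHa2 in the interaction without knock-in 2 (-9.99; 4.98 without knock-in 1). Libraries with 6 to 11 members limit what the genotype comparison can show.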

Other observations

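Tdc2 was also found outside the rule. Barcodes with 2 or more Tdc2 UMIs and no Vmat numbered 78, at a median of 4087 UMIs, against 89 with 2 or more Tdc2 UMIs and Vmat. None of the 78 held SIFa, against 32 of the 89, and Tbh was detected in 12 and 29. Of the 78, 5 held 10 or more UMIs of Orcokinin, a neuropeptide gene, with Trh and ple in all 5, SerT in 3 and CG14075 in 4, and they came from 3 libraries. In the whole experiment 11 barcodes held 10 or more Orcokinin UMIs, none with Vmat and 5 with Tdc2.

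Among the amine genes outside the rule, Tdc1, the other tyrosine decarboxylase gene, had 3 UMIs in all members, all in the Tdc2 set, and 41 in the 118790 other repo-negative barcodes.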
